A study of Rattus norvegicus with 15 samples.

Results

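The 10 hypoxia response genes Hif1a, Egln1, Egln3, Vegfa, Adm, Bnip3, Higd1a, Ddit4, P4ha1 and Ndrg1 were examined in epididymal fat of rats made obese by diet. They were found as the 14 probe sets, out of 31042 that are not controls, whose platform annotation names 1 of these genes and no other. Epididymal fat is the visceral depot beside the testis. The 7 obese rats, male Long-Evans, had eaten a diet rich in both fat and sucrose since weaning. Regular chow was the food of the 8 lean rats, males of the same strain and colony. Tissue was taken from fed animals aged 26 weeks, and each rat gave 1 Affymetrix RAE230_2 array. Before that all rats had been shipped, left to acclimate, given a glucose test and later bled after a fast. The listed ages at these steps were the same in both groups, and any effect of these steps on the transcripts was not tested. Diet and obesity changed together and cannot be told apart here.

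Cells sense oxygen through the prolyl hydroxylases, encoded by the Egln genes, which mark the alpha subunit of the hypoxia-inducible factor (HIF) for destruction as long as oxygen is present. When oxygen is short the subunit, encoded by Hif1a, persists, pairs with Arnt and turns on genes for vessel growth, glycolysis, mitochondrial turnover and collagen maturation. The alpha subunit is controlled mainly as a protein, so its transcript can stay level while the pathway is active, and enlarged fat depots of obese rodents have been described as poor in oxygen.

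Before any comparison, 2 arrays need naming. Obese rat 1 (labelled C1) and lean rat 7 (A7) carried different group labels, yet the profiles nearly coincided. Their log2 values correlated at 0.986 over the 18625 probe sets tested, against 0.960 for the next closest pair and a median of 0.936 over all pairs. Results are therefore given with all 15 arrays and without this pair, which leaves 6 obese and 7 lean rats. Values are MAS5 signals, a linear brightness with the same trimmed mean on every array, and fold changes are on the scale log2(signal + 79.9), which understates the change of dim genes. The fat cell markers Adipoq, Plin1 and Fabp4 were bright on every array, with lowest signals of 31853, 43985 and 90543. Of 4 listed markers of epididymal epithelium only 2, Defb1 and Spink8, had a probe set. Both were dim, at no more than 401 on any array, and the others could not be looked at. These are pieces of whole tissue, in which fewer cells of a type and less RNA per cell cannot be told apart.

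With all 15 arrays, 0 of the 9 member genes that lay above the filter on dim probe sets passed an adjusted p of 0.05 (limma with Benjamini-Hochberg adjustment over 18625 probe sets), and 0 did without the pair. The background was 0% of 10513 genes called with all arrays and 1.1% without the pair, by the brightest probe set of each gene. At an unadjusted p under 0.05 there were 2 of 9 members with all 15 arrays, Ddit4 and Bnip3, beside 14.7% of all genes. Without the pair there were 3 of 9, Ddit4, Bnip3 and Ndrg1, beside 16.7% of all genes. The members did not share a direction: 3 of 9 log2 fold changes were positive with all arrays and 4 of 9 without the pair. Their medians were -0.05 and -0.04. Over all tested genes 46.9% and 46.7% were positive, with medians of -0.01 and -0.02. The member counts depended on the scaling: median centring turned Hif1a, Vegfa and Higd1a positive in both sets of arrays, and P4ha1 with all arrays. The tenth member, Adm, lay below the filter and had the largest difference of all when fitted without it.

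**Figure D1:**
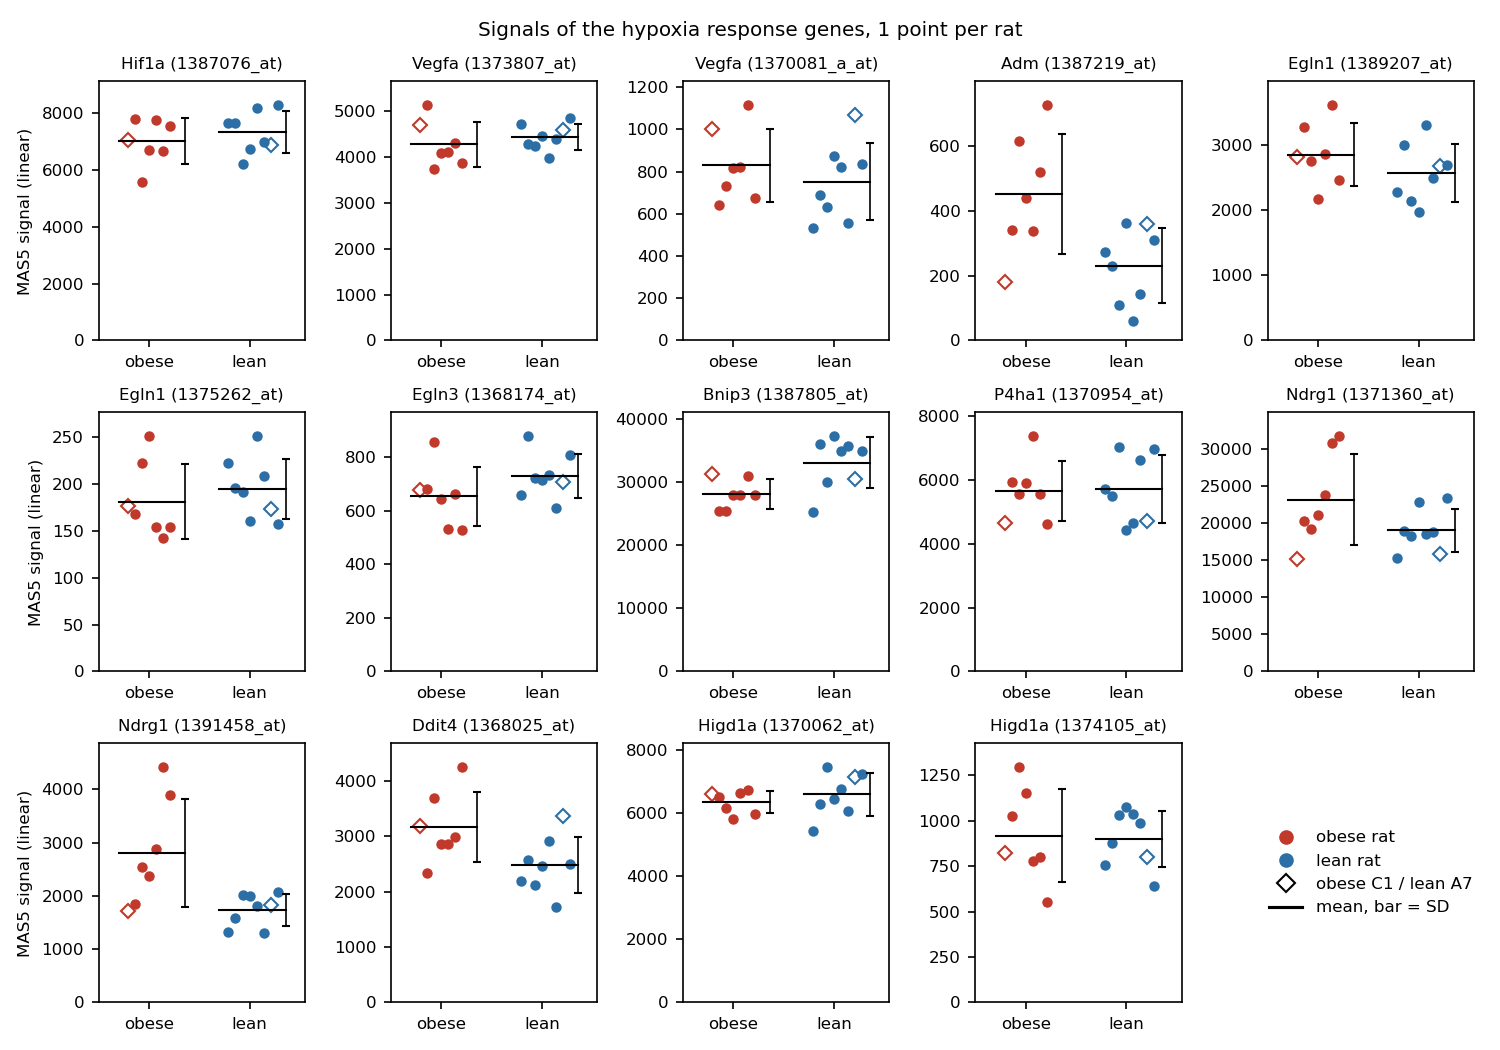
MAS5 signals (linear, y axes from 0) of the 14 probe sets of the 10 hypoxia response genes in 7 obese and 8 lean rats, 1 point per rat, with the mean and SD of all rats of a group. Open diamonds mark the near-identical pair, obese rat 1 (C1) and lean rat 7 (A7). The groups overlap in every panel; Adm and the dimmer Ndrg1 probe set lie mostly higher in obese rats and Bnip3 mostly lower.

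The 2 members with an unadjusted p under 0.05 in both sets of arrays, Bnip3 and Ddit4, lay on opposite sides of 0, and the stretches before their start sites are printed because both hold the letters of the hypoxia response element, to which HIF binds. The sequences are those of RefSeq (build GRCr8), the 250 bases before the start site read 5′ to 3′ on the gene's strand, with capitals where the letters ACGTG or the letters GCGTG stand on either strand. Bnip3 is on the minus strand at chr1:203154963-203155212 and Ddit4 on the minus strand at chr20:28437038-28437287.
Bnip3: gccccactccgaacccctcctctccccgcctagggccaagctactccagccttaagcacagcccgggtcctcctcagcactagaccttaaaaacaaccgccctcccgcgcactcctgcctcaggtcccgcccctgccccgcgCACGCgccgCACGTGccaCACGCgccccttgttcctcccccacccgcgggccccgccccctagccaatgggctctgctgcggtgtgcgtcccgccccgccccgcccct
Ddit4: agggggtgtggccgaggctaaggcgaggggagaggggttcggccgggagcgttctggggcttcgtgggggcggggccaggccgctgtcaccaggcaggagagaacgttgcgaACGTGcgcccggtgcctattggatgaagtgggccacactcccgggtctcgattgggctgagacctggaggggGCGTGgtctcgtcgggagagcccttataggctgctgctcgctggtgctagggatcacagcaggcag
Bnip3 held 4 matches, 2 of which are ACGTG read on either strand of the same palindrome, CACGTG, which starts at position -99. Ddit4 held 2, an ACGTG at position -138 and a GCGTG at position -66, counted from the start site. The same search on both strands found a match before Hif1a, Egln1, P4ha1 and Higd1a and none in the windows of Vegfa, Adm and Egln3. Ndrg1 had no window in the source used and could not be searched, so the windows cover 9 members. Counted by window, 6 of the 10 member windows held a match (60%), Vegfa having 2 windows, while 36.7% of all 33469 windows of the same length held one. These letters are a description of the windows and not evidence of a bound site.

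The oxygen sensors and the HIF subunit showed no called difference. Hif1a (Entrez gene 29560) had signals with a lowest, median and highest value of 5575, 7079 and 7820 in obese rats, against 6215, 7328 and 8298 in lean rats. The ranges overlapped over most of their length, and only obese rat 3 lay below all lean rats. Without the pair Hif1a averaged 7019 ± 872 in obese and 7401 ± 772 in lean rats (SD, n = 6 and 7), a difference on the log2 scale of -0.08 ± 0.11 (SE; 95% confidence interval -0.31 to 0.15; limma adjusted p = 0.742). Median centring of the arrays turned its sign, to 0.04. Egln1 (308913), the main HIF prolyl hydroxylase, had lowest, median and highest signals of 2166, 2824 and 3617 in obese and 1973, 2586 and 3303 in lean rats. Its log2 fold change without the pair was 0.16 ± 0.14 (SE; interval -0.15 to 0.46; limma adjusted p = 0.604). A second Egln1 probe set lay below the filter, at 251 or less on every array.

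Egln3 (54702), a prolyl hydroxylase that is itself a HIF target, averaged a little lower in obese rats and showed no called difference. Its signals had a lowest, median and highest value of 529, 661 and 856 in obese rats, against 612, 720 and 879 in lean rats. In 5 of the 6 obese rats left without the pair the signal was below the lean median, and the exception was obese rat 3. On the log2 scale obese rats differed by -0.16 ± 0.12 without the pair (SE; interval -0.41 to 0.09; limma adjusted p = 0.496) and -0.15 ± 0.10 with all arrays (SE; limma adjusted p = 0.504). The size depended on the scaling: without the pair it was -0.05 after median centring and -0.03 after quantile normalization (limma adjusted p = 0.878 and 0.916).

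Among the secreted members, Vegfa showed no called difference and Adm lay higher in obese rats. Vegfa (83785), the growth factor that draws new vessels, had 2 probe sets above the filter whose log2 fold changes differed in sign. Its brighter probe set had lowest, median and highest signals of 3753, 4111 and 5139 in obese and 3984, 4428 and 4857 in lean rats. Its log2 fold change without the pair was -0.07 ± 0.10 (SE; interval -0.28 to 0.13; limma adjusted p = 0.725). The dimmer one had 0.16 ± 0.14 (SE; interval -0.14 to 0.47; limma adjusted p = 0.584). Median centring and the mean over both probe sets each turned the sign of Vegfa, to 0.04 and 0.05 without the pair. Neither probe set separated the groups.

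Adm (25026) encodes adrenomedullin, a peptide that widens vessels. It was dim: 26.3% of probe sets had a lower mean signal, and the filter removed it. Its lowest, median and highest signals were 180, 440 and 727 in obese rats, against 60, 252 and 361 in lean rats. Obese rats 3, 5, 7 and 8 lay above every lean rat, while obese rat 1 lay below the lean median. Without the near-identical pair all 6 obese rats were above the lean median, and 6 of 7 lean rats lay below every obese rat; lean rat 4, at 361, was above obese rats 2 and 6. Adm then averaged 497 ± 155 in obese and 213 ± 112 in lean rats (SD, n = 6 and 7). Fitted with no filter, its log2 fold change was 1.04 ± 0.27 without the pair (SE; interval 0.46 to 1.61; limma unadjusted p = 0.00173, adjusted p = 0.134) and 0.79 ± 0.28 with all arrays (SE; limma unadjusted p = 0.0122, adjusted p = 0.298). Neither adjusted p passed the threshold. For a gene this dim the size depends on the pseudocount: without the pair the log2 fold change was 1.38 with a pseudocount of 1 and 0.65 with the 25th percentile of signals.

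**Figure D2:**
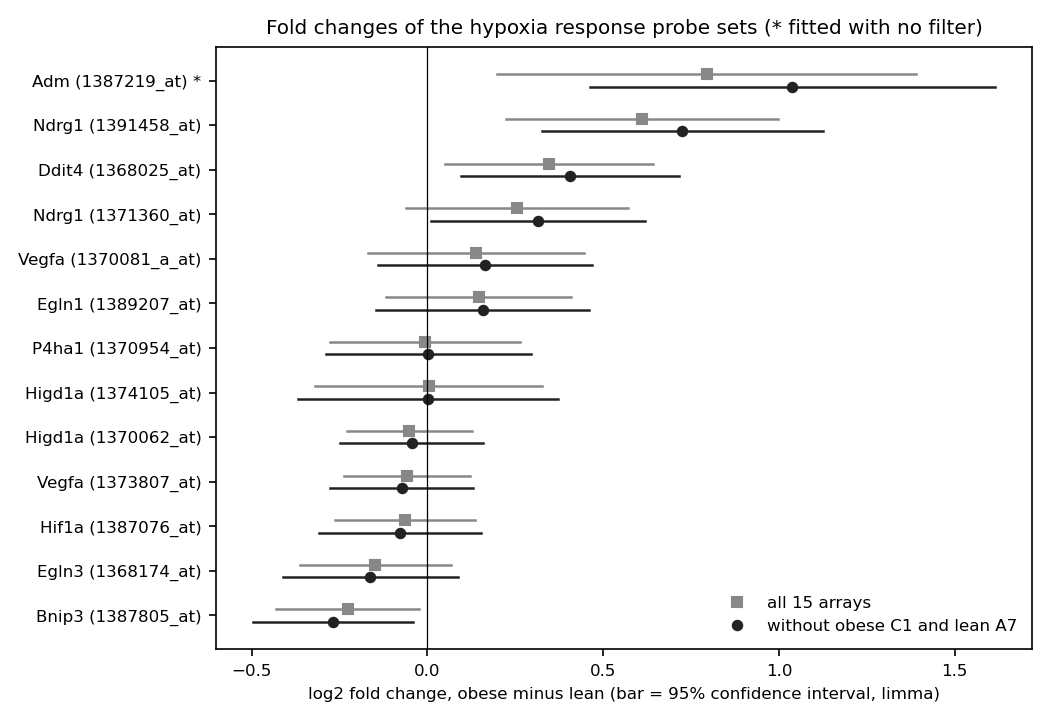
Log2 fold changes (obese minus lean) of the members' probe sets with 95% confidence intervals from limma, with all 15 arrays (grey squares) and without obese rat 1 and lean rat 7 (black circles). Adm, marked with an asterisk, was fitted with no filter on dim probe sets, and the second Egln1 probe set, also below the filter, is not drawn. Without the pair the values run from -0.27 for Bnip3 to 1.04 for Adm, and leaving out the pair moves most of them away from 0.

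Bnip3 was the member with the largest negative difference. Bnip3 (84480), a mitochondrial outer membrane protein that triggers the removal of mitochondria, had lowest, median and highest signals of 25338, 27949 and 31246 in obese rats, against 25251, 34856 and 37242 in lean rats. All 7 obese rats lay below the lean median and 5 of 8 lean rats lay above every obese rat, but lean rat 1 was the lowest of all 15. Without the pair Bnip3 averaged 27560 ± 2079 in obese and 33394 ± 4259 in lean rats (SD, n = 6 and 7). The log2 fold change was -0.27 ± 0.11 (SE; interval -0.50 to -0.04; limma unadjusted p = 0.0235, adjusted p = 0.208) without the pair and -0.23 ± 0.10 with all arrays (SE; limma unadjusted p = 0.0301, adjusted p = 0.268). The size depended on the scaling: without the pair it was -0.15 after median centring and -0.39 after quantile normalization (limma adjusted p = 0.54 and 0.0836).

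Higd1a (140937), a small protein of the inner mitochondrial membrane that supports respiration when oxygen is low, showed no called difference. Its brighter probe set had lowest, median and highest signals of 5819, 6504 and 6724 in obese and 5423, 6613 and 7458 in lean rats. All obese rats fell inside the lean range. Its log2 fold change was -0.04 ± 0.10 without the pair (SE; interval -0.25 to 0.16; limma adjusted p = 0.843), and median centring turned its sign, to 0.07. The dimmer probe set had 0.0003 ± 0.17 (SE; interval -0.37 to 0.37). The brighter probe sets of Vegfa and Higd1a varied little from rat to rat: the standard deviation within groups was 0.13 on the log2 scale for each, and only 3.8% and 3.9% of tested probe sets varied less. That of Adm was 0.52, and 92.5% of tested probe sets varied less, although Adm itself lay below the filter that those had passed. Spread was not compared at like brightness.

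Ddit4 (140942), a stress protein also called REDD1 that restrains the growth kinase mTOR, lay higher in obese rats without passing the threshold. Its signals had a lowest, median and highest value of 2337, 2994 and 4252 in obese rats, against 1715, 2485 and 3370 in lean rats. Of the obese rats, 6 of 7 were above the lean median, and obese rats 3 and 8 were above every lean rat. The highest lean value was that of lean rat 7, of the near-identical pair. Without the pair Ddit4 averaged 3168 ± 687 in obese and 2355 ± 385 in lean rats (SD, n = 6 and 7). The log2 fold change was 0.41 ± 0.15 (SE; interval 0.10 to 0.72; limma unadjusted p = 0.0137, adjusted p = 0.166) without the pair and 0.35 ± 0.14 with all arrays (SE; limma unadjusted p = 0.0248, adjusted p = 0.252).

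P4ha1 (64475), the catalytic subunit of the enzyme that hydroxylates proline in collagen, had nearly equal means. Its lowest, median and highest signals were 4628, 5557 and 7370 in obese and 4433, 5614 and 7015 in lean rats. Its log2 fold change was 0.0025 ± 0.14 without the pair (SE; interval -0.29 to 0.29; limma adjusted p = 0.996) and -0.0064 ± 0.13 with all arrays (SE; limma adjusted p = 0.986). Its sign turned with the pair left out, and the interval allows a change of 0.29 on the log2 scale either way.

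Ndrg1 (299923), a cytoplasmic stress protein induced by HIF, was higher in obese rats on both of its probe sets, and the size differed between them. The brighter probe set had lowest, median and highest signals of 15178, 21068 and 31770 in obese rats, against 15373, 18646 and 23474 in lean rats. Obese rats 6, 7 and 8 were above every lean rat, and obese rat 1 was the lowest of all 15. Its log2 fold change was 0.32 ± 0.14 without the pair (SE; interval 0.01 to 0.62; limma unadjusted p = 0.0436, adjusted p = 0.264) and 0.26 ± 0.15 with all arrays (SE; limma adjusted p = 0.419). The dimmer probe set had 1715, 2534 and 4420 in obese rats, against 1310, 1821 and 2067 in lean rats. On it obese rats 3, 5, 6, 7 and 8 were above every lean rat. Without the pair it averaged 2991 ± 978 in obese and 1728 ± 326 in lean rats (SD, n = 6 and 7).

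The log2 fold change of the dimmer Ndrg1 probe set was 0.73 ± 0.19 without the pair (SE; interval 0.33 to 1.12; limma unadjusted p = 0.00148, adjusted p = 0.0762) and 0.61 ± 0.18 with all arrays (SE; limma unadjusted p = 0.00395, adjusted p = 0.15). It did not pass in either, and without the pair its adjusted p fell under the threshold with the filter at the 60th percentile, after median centring, or with a trended, robust variance (0.0405, 0.0473 and 0.0455). It also did so when obese rat 2 was left out as well, at 0.85 (limma adjusted p = 0.0395). The log2 difference of the dimmer minus the brighter probe set within each array was -3.03 ± 0.22 in obese and -3.44 ± 0.20 in lean rats without the pair (SD, n = 6 and 7; exact two-sided permutation p = 0.00641, adjusted p = 0.0261 over 6 such tests), and it was above the lean median in 6 of 6 obese rats. That pair was picked because its log2 fold changes had been seen to differ, so the p describes that difference and is no independent support for it. Which probe set follows the transcript was not tested.

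RNA degradation was gauged from control probe sets, and the measure averaged lower in obese rats without passing. The log2 ratio of 3 prime to 5 prime Gapdh control signal, which grows as RNA degrades, was 0.72 ± 0.28 in obese and 1.05 ± 0.28 in lean rats without the pair (SD, n = 6 and 7; exact two-sided permutation p = 0.0589, adjusted p = 0.0707). Its lowest values, 0.35 and 0.51, belonged to obese rats 8 and 7, the 2 rats with the highest signals on both Ndrg1 probe sets. Adjusted for that ratio, the log2 fold change without the pair was 0.49 for the dimmer and 0.15 for the brighter Ndrg1 probe set, 0.29 for Ddit4, 0.94 for Adm with no filter and -0.26 for Bnip3 (limma adjusted p = 0.296, 0.706, 0.464, 0.363 and 0.368), and its part in these differences was not otherwise tested. Of the macrophage markers, 9 of 9 had positive log2 fold changes without the pair, with a median of 0.37, and Cd68 and Lgals3 passed. Their summed signal without the pair ran from 79258 to 161735 in obese and from 55383 to 79196 in lean rats, so the ranges nearly touched. With all 15 arrays 9 of 9 were again positive, with a median of 0.32, but none passed. The lowest obese sum was then 73975, within the lean range. The part of the macrophage markers in the differences of Ndrg1, Ddit4 and Adm was not tested. The 5 tested mesothelial markers were all negative with a median of -0.34, none passing. Of the 5 tested smooth muscle and pericyte markers 1 was positive, with a median of -0.17 and none passing, and their summed signal ran from 8893 to 12522 in obese and from 11842 to 13385 in lean rats, and the part of either list in the members' differences was not tested. Fat cell markers were positive in 4 of 7 with a median of 0.0088, and the 2 tested red blood cell markers were both positive with a median of 0.09, none passing. The 7 endothelial markers had a median of 0.12, 4 of them positive and none passing, with summed signals of 28560 to 31845 in obese and 26889 to 31187 in lean rats.

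**Figure D3:**
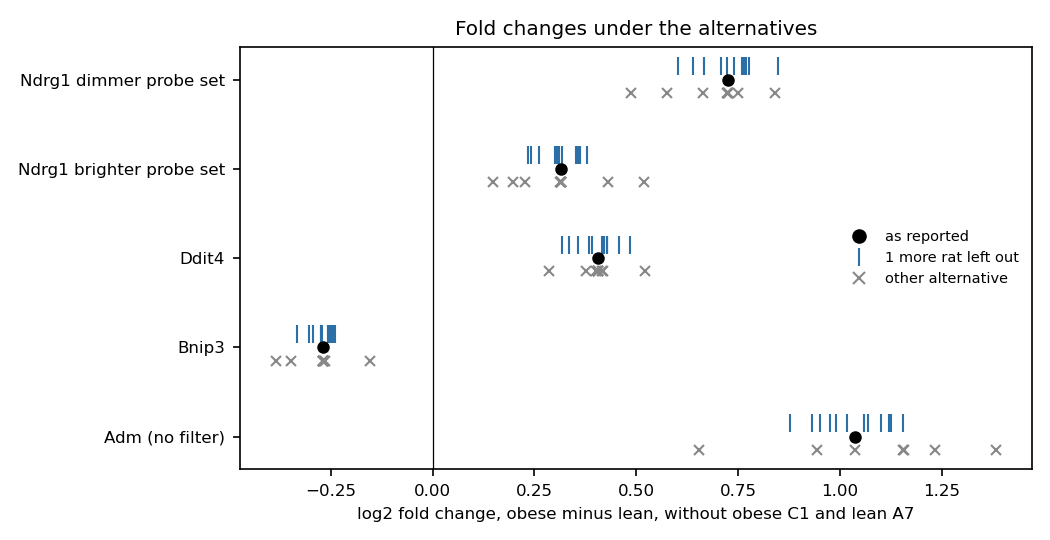
Log2 fold changes (obese minus lean) of the 4 members with the largest differences, without obese rat 1 and lean rat 7. Black circles are the values as reported, blue ticks leave out 1 more rat and grey crosses are other alternatives. Every value of Ndrg1, Ddit4 and Adm drawn is above 0 and every value of Bnip3 below it, and the brighter Ndrg1 probe set comes closest to 0, at 0.15 when adjusted for the Gapdh ratio.

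Beyond the members, 108 further genes of the pathway were listed by role, of which 90 lay above the filter. With all 15 arrays 0 of the 90 passed and 24 had an unadjusted p under 0.05 (limma), 17 higher and 7 lower in obese rats. Over all genes 14.7% had such a p, 7.77% higher and 6.97% lower. Without the pair 3 rose and 0 fell, beside 1.1% of all genes called, and 25 had an unadjusted p under 0.05, 18 higher and 7 lower. Over all genes 16.7% did, 8.55% higher and 8.19% lower. The 3 were the glycolytic genes Pfkfb3 and Eno1 and the binding protein Igfbp3. The count of 3 was not firm: it was 0 when obese rat 6, 7 or 8 or lean rat 6 was also left out, 1 without obese rat 5 or lean rat 2, 4 or 5, and 0 when adjusted for the Gapdh ratio. The list was written from knowledge of the pathway with earlier results of these data known.

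Glycolytic targets of HIF held 12 of 18 positive members, with a median log2 fold change of 0.10 without the pair. Pfkfb3 (117276), which makes the activator of the committed step of glycolysis, had signals of 9987 to 14126 in obese and 5915 to 9131 in lean rats without the pair, so the groups did not overlap. It rose by 0.63 ± 0.12 (SE; limma adjusted p = 0.0234), while its second probe set had 0.35 (limma adjusted p = 0.314). Eno1 (24333), a glycolytic enolase, averaged 15054 ± 1918 in obese and 10736 ± 855 in lean rats (SD, n = 6 and 7), and rose by 0.48 ± 0.10 (SE; limma adjusted p = 0.0421). With all 15 arrays Pfkfb3 had 0.53 and Eno1 0.39 (limma adjusted p = 0.116 and 0.122). In both genes obese rat 1 was the only obese rat within the lean range.

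Igfbp3 (24484), which carries insulin-like growth factors and is among the HIF targets outside metabolism, showed the largest difference of the wider list. It averaged 10766 ± 4086 in obese and 4625 ± 1516 in lean rats without the pair (SD, n = 6 and 7), a rise of 1.19 ± 0.24 on the log2 scale (SE; limma adjusted p = 0.0346). Its second probe set also rose (limma adjusted p = 0.037). The log2 fold change with all arrays was 1.02 ± 0.25 (SE; limma adjusted p = 0.105). The 15 tested genes of that list had a median of -0.03, and the next smallest p was that of Zfp395, a transcription factor, at -0.34 (limma adjusted p = 0.0985).

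**Figure D4:**
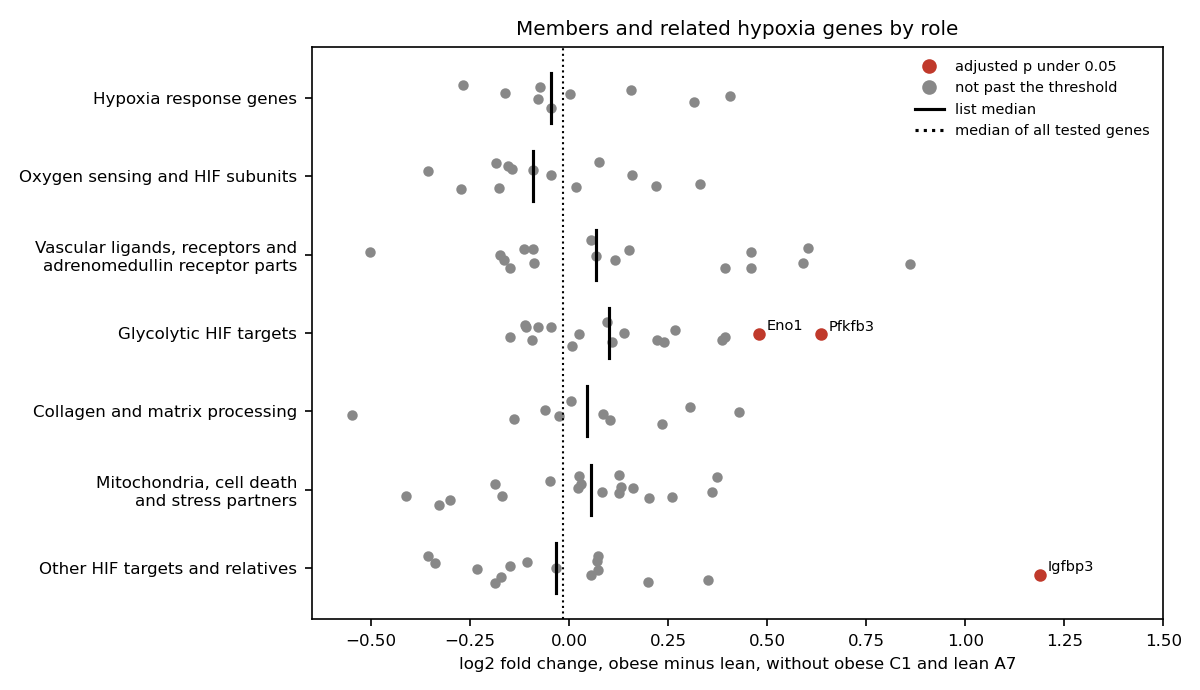
Log2 fold changes (obese minus lean) without obese rat 1 and lean rat 7 for the 9 tested hypoxia response genes and the 90 tested genes of the wider lists, 1 point per gene and list by its brightest probe set. Gbe1 is in both the glycolytic list and the list of other HIF targets and is drawn in each. Red points passed an adjusted p of 0.05, black bars are list medians and the dotted line is the median of all tested genes, -0.02. None of the 9 hypoxia response genes is red, and the red points are Pfkfb3, Eno1 and Igfbp3.

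No gene of the other lists passed in either set of arrays. Oxygen sensing and HIF subunits had 5 of 13 positive members and a median of -0.09 without the pair. Their smallest p belonged to Cul2, the scaffold of the ligase that removes HIF, at -0.35, and Elob, its adaptor, at 0.22 (limma adjusted p = 0.13 and 0.343). Vascular ligands and receptors had 10 of 17 positive and a median of 0.07. There Nrp1, a co-receptor of Vegfa, had 0.46 ± 0.11 with no overlap between 6 obese and 7 lean rats, and the heme-degrading enzyme Hmox1 0.86 ± 0.23 (SE; limma adjusted p = 0.0611 and 0.0835). The other Nrp1 probe set above the filter had 0.24 (limma adjusted p = 0.386). Collagen and matrix processing had 6 of 10 positive and a median of 0.05, with P4ha3, a relative of P4ha1, at -0.55 and the collagen Col5a1 at 0.43 (limma adjusted p = 0.0991 and 0.139). The other Col5a1 probe set above the filter had 0.29 (limma adjusted p = 0.359). Mitochondrial, cell death and stress partners had 12 of 18 positive and a median of 0.06, with the redox regulator Txnip at 0.37 and Fundc1, a receptor for mitochondrial removal, at -0.30 (limma adjusted p = 0.121 and 0.175).

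Direct partners of the members were chosen for that link after other values had been seen. Epas1, the second oxygen-regulated HIF subunit, had a log2 fold change of 0.02 ± 0.10 without the pair and Vhl, which recognises hydroxylated HIF, -0.05 ± 0.12 (SE; limma adjusted p = 0.943 and 0.877). The other Epas1 probe set above the filter had 0.38 without the pair (limma adjusted p = 0.281), so the probe sets of Epas1 differed in size. Arnt lay below the filter. Kdr, the main signalling receptor of Vegfa, had 0.12 ± 0.17 and Bnip3l, the closest relative of Bnip3, 0.13 ± 0.09 (SE; limma adjusted p = 0.749 and 0.471). The other Bnip3l probe set above the filter had the opposite sign, at -0.10 without the pair (limma adjusted p = 0.666). The signs of Epas1, Vhl and Kdr turned under other scalings or covariates. Calcrl, the receptor of adrenomedullin, works together with a Ramp protein, and its parts did not share a direction. Calcrl averaged 580 ± 131 in obese and 860 ± 237 in lean rats (SD, n = 6 and 7), a log2 difference of -0.50 ± 0.18 (SE; limma adjusted p = 0.161). Ramp2 averaged 10369 ± 1478 in obese and 7840 ± 763 in lean rats (SD, n = 6 and 7), a log2 difference of 0.39 ± 0.11 (SE; limma adjusted p = 0.0899). Ramp1, which with Calcrl forms the receptor of a related peptide, had 0.46 ± 0.13 (SE; limma adjusted p = 0.0953), and Ramp3 lay below the filter. None of these parts passed, and Ramp1, Ramp2 and Ramp3 were named after their values had been seen. P4hb, which completes the collagen prolyl hydroxylase with P4ha1, had 0.23 ± 0.09 (SE; limma adjusted p = 0.173).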

How the data were processed

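The deposited values are intensity values, MAS5 signals per the submitters' processing notes, on a linear scale, with a 2% trimmed mean of 1500.34 to 1500.42 on every array; version, background settings and detection calls are not given in the sources used here. Of 31099 probe sets, 57 were controls. Signals were transformed to log2(signal + 79.9), the 10th percentile of all signals, and the 18625 probe sets with a mean above the 40th percentile were tested with limma 3.58.1 in R 4.3.3 (lmFit, eBayes, Benjamini-Hochberg over all of them, threshold 0.05). The number of arrays limits the precision.

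Names came from the platform annotation, using the 20826 probe sets with 1 gene; 436 named several and 9780 none. Each gene was represented by its brightest probe set. Named genes were all members and, of each further list, those past the threshold plus the 2 with the smallest p without the pair. Members and lists were chosen with earlier results of these data known. Promoter sequences are RefSeq's. Of 6 permutation tests, all were exact. The labels do not say that rat numbers pair the groups: same-numbered rats' deviations correlated at -0.117 to 0.229. The fit was checked on simulated data with normal spread between rats. It called 36% of changes of 0.5 on the log2 scale with 15 arrays and 40% without the pair. For changes of 1 it called 86% and 82%. By their brightest probe sets the 9 tested members all differed by less than 0.5, the smallest change simulated. Figures used matplotlib 3.10.9. Alternatives changed the pseudocount, the filter, the normalization, the variance model, the choice of probe set, the replicate block, the Gapdh ratio as covariate and single rats left out; those of Adm with no filter and of the dimmer Ndrg1 probe set were added after seeing the data.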

Additional observations from a re-analysis of the deposited data

Results flagged for a closer look

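Among 66 sets of values of 1 group, 2 held a rat far from the others, where chance gives about 1 set in 20. In obese rats, the collagen prolyl hydroxylase subunit P4ha3 was lowest in rat 6, at 10.01 on the log2 scale against 10.60 in the next rat, a gap of 0.587 of the group's whole range. In obese rats, the adrenomedullin receptor Calcrl was lowest in rat 7, at 8.67 against 9.29 in the next rat, a gap of 0.655 of the range. None of the members' own probe sets held such a rat.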

How the results depend on the processing

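No member passed in any of the alternatives run, 26 with all 15 arrays and 23 without the pair, the dimmer Ndrg1 probe set apart, and no alternative turned the sign of Bnip3, Ddit4, Ndrg1, Egln3 or Adm. The count of all probe sets called with 15 arrays was 0, against 3 with no filter, 49 with the filter at the 60th percentile, 8 with trend and robust and 189 without the pair, and 0 to 245 when 1 rat was left out, with 245 without obese rat 1 and 1 without lean rat 7. Without the pair it was 189, against 124 with a pseudocount of 1, 46 with no filter, 334 with the filter at the 60th percentile, 389 after median centring, 124 after quantile normalization, 309 with trend and robust, 14 with the Gapdh ratio and 3 with the replicate block, and 51 to 262 with 1 more rat left out. Called genes of the wider lists without the pair were 3, against 0 with no filter, the replicate block or the Gapdh ratio, 6 with the filter at the 60th percentile, 10 after median centring, 5 with trend and robust, and 0 to 3 with 1 more rat left out; with 15 arrays they were 0, against 3 without the pair and 0 to 5 with 1 rat left out, with 5 without obese rat 1. Without the pair the replicate block took the calls of Pfkfb3, Eno1 and Igfbp3, at 0.58, 0.50 and 1.32 (limma adjusted p = 0.185, 0.2 and 0.198). Of the 5 rat numbers in both groups, 2 correlated best with their own number.

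With median centring the median over all probe sets was 0.06 instead of -0.04 with 15 arrays and 0.07 instead of -0.04 without the pair, and 91.8% of the calls without the pair were then higher in obese rats, against 71.4%. It turned Hif1a to 0.0386 and 0.0375, Vegfa to 0.0447 and 0.0425, Higd1a to 0.0505 and 0.0713 and Vhl to 0.0563 and 0.0699 (15 arrays, then without the pair), which lie below those medians, and P4ha1 with 15 arrays to 0.0954. Quantile normalization turned Epas1 to -0.0561 and -0.0687 and P4ha1 without the pair to -0.0566. The Gapdh ratio turned Kdr to -0.0211 and -0.0469 and, without the pair, P4ha1 to -0.0188 and Vhl to 0.0301; the replicate block without the pair turned Egln1 to -0.0094 and P4ha1 to -0.0625. The mean over its probe sets turned Vegfa to 0.0407 and 0.0454, and leaving out the pair turned P4ha1 to 0.0025. With 1 rat left out P4ha1 ran from -0.072 to 0.0388 and, without the pair, from -0.0674 to 0.0651, Epas1 from -0.0187 to 0.0489 and from -0.0257 to 0.0488, and Vhl from -0.0992 to 0.0068 and from -0.1054 to 0.0218. The Gapdh ratio's own difference, -0.27 with 15 arrays and -0.33 without the pair, ran from -0.34 to -0.21 and from -0.41 to -0.26 with 1 rat left out, and with beta-actin it was -0.37 and -0.41 (exact permutation p = 0.0373 and 0.0501). The causes of these shifts were not tested.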
